A study of Mus musculus with 4 samples.

Results

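Pdzd2, Cyp4f18, Apoe, Lipc, Hpse, Arl5c, Scimp and March1 were followed across 4 single-cell libraries of splenic B cells. These 8 of the 31053 genes in the matrices were chosen by their raised levels in the germinal center (GC) B cells annotated as in transition from centroblast (CB) to centrocyte (CC). That choice was made on these same cells, so the higher levels in transitioning cells given below describe the choice and carry no test. The annotation deposited by the authors named 3758 transitioning cells among 9804 GC B cells, out of 39009 barcodes.

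The B220+IgD- cells came from spleens of mice immunized with sheep red blood cells (SRBC) and sorted at day 10, from 1 mouse and 1 library for each genotype. All mice carried a Cγ1-cre allele, written Cg1Cre+/-, which is known to act mainly in B cells that have been activated by antigen. WT mice had no floxed allele, C mice were Crebbp fl/+, K mice were Kmt2d fl/+ and CK mice were Crebbp fl/+ and Kmt2d fl/+. The authors' figure legend for these cells describes the mice as 8-week-old females on a C57BL/6J background, while their methods give a wider range of age at immunization. With 1 library a genotype, differences between genotypes have no replicate check, no test between them was possible, and a difference of genotype and a difference of library cannot be told apart. Intervals in brackets are exact 95% intervals for counting error only. Levels are given as CPM, the molecules of a gene counted by unique molecular identifier (UMI) over all cells of a group, per 1000000 UMIs of that group. They are compared within a gene and not between genes.

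In the germinal center, CB divide in the dark zone and mutate their antibody genes, whereas CC in the light zone test the mutated receptor, take up antigen and present it to T cells. Cells pass between the zones repeatedly. Apoe carries lipids between cells and Lipc, hepatic lipase, cleaves lipids of lipoproteins. Hpse, heparanase, cuts heparan sulfate chains, and Cyp4f18 is a cytochrome P450 that oxidises leukotriene B4. March1 is a membrane ubiquitin ligase that removes MHC class II and CD86 from the cell surface, and Scimp is an adaptor of tetraspanin microdomains that signals with MHC class II. Arl5c belongs to the ARF-like small GTPases of membrane traffic and Pdzd2 is a protein with several PDZ domains.

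There were 471, 760, 1029 and 1498 transitioning cells in the WT, C, K and CK libraries, with medians of 3617.5 to 5278 UMIs a cell. All 7 GC B markers were detected in them in each library, with a summed level of 2020 to 2211 CPM. The K library stood apart from the other libraries. In K, 78.9% of the transitioning cells lay in a cluster led by Ada, Lipc and Csrp2 that held at most 4.88% of those of any other library. In the other libraries 44.1% to 54.8% lay in a cluster whose leading genes included Pdzd2 and Gm2447, made, as all clusters, without the counts of the 8 genes. Crebbp itself was at 78.7 CPM in transitioning cells of WT, 43.4 of C, 36.6 of K and 39.5 of CK. Kmt2d was at 16.7 CPM of WT, 22.7 of C, 9.06 of K and 15.3 of CK. A 3' tag can lie outside the deleted part of a floxed gene, so these levels do not check the labels. Libraries shared 17 to 31 barcodes in pairs, of which 0 to 4 were annotated.

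Of the 8 genes 6, Pdzd2, Cyp4f18, Hpse, Arl5c, Scimp and March1, had their highest level in transitioning cells in all 4 libraries, among subtypes with at least 20 cells. This was the case for 3.49% of the 4355 genes that reached 50 CPM somewhere, a share that is given as background for a choice made on the same contrast. Without the WT library the count was 7, as Lipc joined, against 5.40% of all genes, and without any other library it was 6. The excess over the next subtype was small, with a median over the 8 genes of 0.35 on the log2 scale. Apoe was highest in transitioning cells in 1 of 4 libraries, K, and Lipc in 3 of 4.

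Transitioning cells of WT, C, K and CK held Apoe at 747 [713 to 782], 836, 855 and 828 CPM. In CC the levels were 781, 1069, 843 and 882 CPM in the same order, and in CB they were lower at 373, 594, 556.5 and 497 CPM. No library had an interval of transitioning over CC above 0, and in C and CK the CC level was above the transitioning level (log2 -0.35 [-0.44 to -0.27] and -0.09 [-0.16 to -0.02] for transitioning over CC). In WT the highest level, 842 CPM, was that of 38 early CB. Prememory cells had only 30.3 to 122 CPM.

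Lipc was at 145, 169, 162 and 179.7 CPM in transitioning cells of WT, C, K and CK. In CC it was at 82.8 to 94.5 CPM and in CB at 95.6 to 108 CPM, and the intervals of both ratios were above no change in all 4 libraries. Lipc was thus 1.501 to 1.76 times higher than in CB and 1.64 to 2.04 times higher than in CC. The exception was early CB of WT, at 153 CPM (log2 -0.08 [-0.58 to 0.46] for transitioning over early CB).

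Hpse levels in transitioning cells were 104, 90.3, 72.1 and 67.2 CPM for WT, C, K and CK. Its ratio over CB was 1.34 to 1.54 and that over CC 1.21 to 1.68 times, with intervals above no change in all 4 libraries for both. Cyp4f18 levels were 144, 117, 99.5 and 94.96 CPM in the same order. The gene separated transitioning cells from CB, by 2.12 to 2.76 times, and hardly from CC, by 1.02 to 1.37 times, where only 1 of 4 intervals lay above no change. Over the highest other subtype the log2 excess of Cyp4f18 was 0.03 to 0.11, with intervals that included 0 in all 4 libraries. In WT that subtype was early CB, at 140 CPM.

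March1 was at 250.02, 253, 113 and 228 CPM in transitioning cells of WT, C, K and CK, so that K was low. It differed little between stages, being 1.21 to 1.40 times higher than in CB and 1.05 to 1.23 times higher than in CC. Scimp was at 173, 179, 179 and 153 CPM, and was 1.22 to 1.62 times higher than in CB and 1.41 to 1.72 times higher than in CC. Both genes were low in prememory cells, with Scimp at 9.13 to 18.8 CPM and March1 at 27.0 to 71.5 CPM.

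For Arl5c the levels were 274, 214, 258 and 253 CPM in transitioning cells of WT, C, K and CK. It was 2.25 to 2.75 times higher than in CC, the widest gap to CC among the 8 genes, and 1.40 to 1.73 times higher than in CB. For Pdzd2 they were 150.1, 133, 82.1 and 139.7 CPM, with K again the lowest, which was 1.46 to 1.83 times its level in CB and 1.32 to 1.92 times that in CC. On the log2 scale, the transitioning level was nearer to CC than to CB in all 4 libraries for Apoe, Cyp4f18 and March1, and nearer to CB in all 4 for Arl5c and Lipc. For Pdzd2, Hpse and Scimp the nearer stage differed between libraries.

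**Figure D1:**
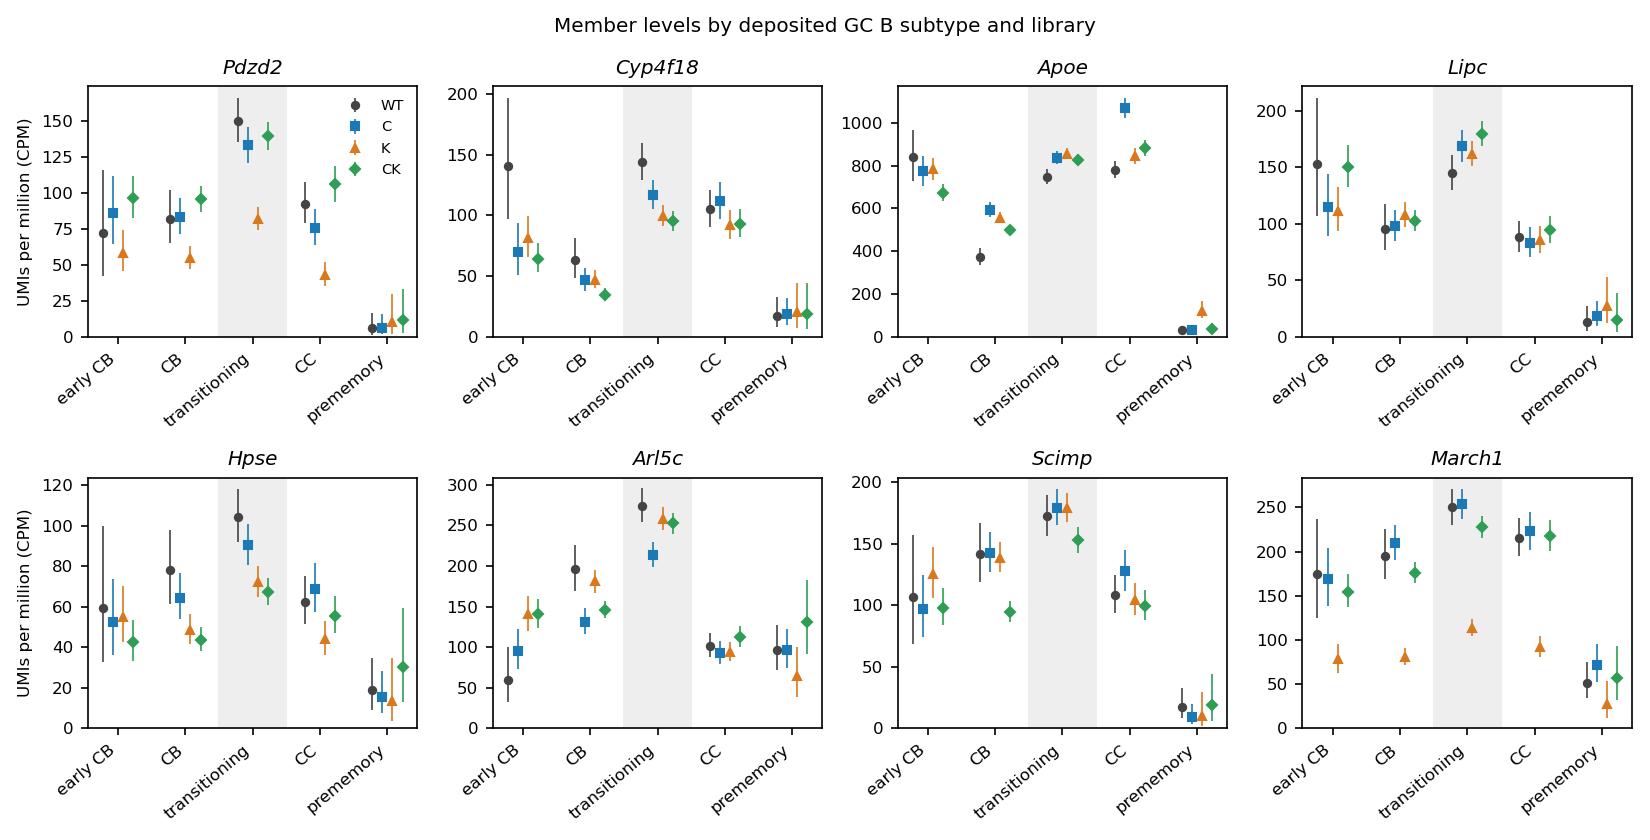
Levels of the 8 genes in CPM (vertical axes, linear from 0) in 5 deposited subtypes, 1 point a library with its exact 95% Poisson interval; the grey band marks transitioning cells and the recycling subtype, with 8 to 49 cells, is left out. Prememory cells are low for 7 genes, Arl5c being at 64.2 to 131 CPM there, and March1 in K lies below the other libraries in every subtype shown.

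The number of the 8 genes found in a single cell was also higher in transitioning cells, which follows from the choice of genes. After each cell was thinned to 2000 UMIs, transitioning cells held a mean of 2.32 to 2.68 of the 8 genes, against 1.71 to 1.94 in CB, 1.67 to 2.05 in CC, 0.43 to 0.54 in prememory cells and 0.30 to 0.33 in T-like cells. At least 3 of the 8 were found in 41.5% to 51.6% of transitioning cells, 22.7% to 28.6% of CB and 21.2% to 32.2% of CC. Such a mean is the sum of the shares of the single genes. Whether the genes fell in the same cells more often than those shares would give was not tested. Thinning left out 6 to 78 transitioning cells and 100 to 1628 T-like cells a library.

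The share of thinned transitioning cells with a UMI was 66.5% to 71.6% for Apoe, against 2.63% to 4.13% of T-like cells (82.1% to 87.8% and 4.42% to 5.57% before thinning). For Pdzd2 it was 14.97% to 26.7% against 0.34% to 0.45% (31.1% to 50.1% and 0.41% to 0.79% before thinning). For Scimp it was 26.5% to 30.5% against 0.76% to 1.12% (43.2% to 57.7% and 1.08% to 1.77% before thinning). T-like cells had medians of 1979.5 to 3295 UMIs. Arl5c was the exception, found in 30.9% to 40.7% of transitioning cells and in 22.8% to 26.3% of T-like cells, so the T-like share is not a background for it (48.7% to 63.1% and at most 35.1% before thinning).

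Macrophages are known for high Apoe. In transitioning cells the 10 macrophage and monocyte markers summed to 14 to 26 UMIs a library, or 3.51 to 5.71 CPM, and 6 to 9 of the 10 were at 0, with C1qa, C1qc, Csf1r, Vcam1 and Mertk at 0 in all libraries and Cd68 giving 11 to 26 of the UMIs. In CC they summed to 4.43 to 9.99 CPM. The Apoe level of the transitioning cells without any such UMI was 739, 837, 856 and 827 CPM for WT, C, K and CK, close to the levels in all transitioning cells given above. The 5 erythroid markers summed to 36.2 to 87.7 CPM in 3 libraries and to 1143 CPM in C, and their part in the levels of C was not tested.

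The genes are placed here on the GRCm38 build (mm10) by the GENCODE vM21 annotation. Pdzd2 (ENSMUSG00000022197) lies at chr15:12359711-12739924, Cyp4f18 (ENSMUSG00000003484) at chr8:71988482-72009626 and Apoe (ENSMUSG00000002985) at chr7:19696109-19699188, all on the minus strand. Lipc (ENSMUSG00000032207) lies at chr9:70798128-70952226, Hpse (ENSMUSG00000035273) at chr5:100679484-100719716, Arl5c (ENSMUSG00000038352) at chr11:97989578-97996181 and Scimp (ENSMUSG00000057135) at chr11:70790932-70812586, also on the minus strand. March1 (ENSMUSG00000036469) spans chr8:65617900-66471637 on the plus strand. Other annotated genes overlap Pdzd2, Lipc and March1 on the same strand, and Cyp4f18 has close paralogs, so counts of these genes carry some uncertainty of assignment.

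The bases before their start sites were read from the RefSeq promoter table (GRCm38.p6), which holds 11 entries for 6 of the 8 genes, Marchf1 standing for March1. The Pdzd2 window holds a word of 13 bases 3 times. This word was found after the sequence was seen; no other promoter among the 32851 of the table contains it on either strand, and 0.785% of all promoters hold some word of that length 3 times. It is shown in capitals, on the minus strand of chr15:12739925-12740074:
Pdzd2: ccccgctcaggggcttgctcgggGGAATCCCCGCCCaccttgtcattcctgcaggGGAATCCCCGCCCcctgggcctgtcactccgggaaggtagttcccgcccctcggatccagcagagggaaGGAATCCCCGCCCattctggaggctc
For contrast, the windows nearest to the first start of Hpse (chr5:100719717-100719866), Apoe (chr7:19699189-19699338), Cyp4f18 (chr8:72009627-72009776) and Lipc (chr9:70952227-70952376), all on the minus strand and outside annotated exons, are shown with CG dinucleotides in capitals:
Hpse: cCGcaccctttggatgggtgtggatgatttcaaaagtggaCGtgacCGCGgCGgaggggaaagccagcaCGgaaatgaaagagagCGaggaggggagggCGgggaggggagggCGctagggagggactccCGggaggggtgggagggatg
Apoe: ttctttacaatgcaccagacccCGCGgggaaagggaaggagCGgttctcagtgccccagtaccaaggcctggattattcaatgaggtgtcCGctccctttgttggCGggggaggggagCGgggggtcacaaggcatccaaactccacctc
Cyp4f18: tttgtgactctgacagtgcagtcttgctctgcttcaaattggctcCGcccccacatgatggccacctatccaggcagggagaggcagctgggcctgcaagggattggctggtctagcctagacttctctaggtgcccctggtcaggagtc
Lipc: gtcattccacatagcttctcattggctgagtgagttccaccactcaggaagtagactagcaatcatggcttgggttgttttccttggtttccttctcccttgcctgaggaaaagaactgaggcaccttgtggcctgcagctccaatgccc

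These windows had little in common by base composition. In the whole 250 bases upstream, Pdzd2 and Hpse had 16 CG dinucleotides each, Apoe 8, Cyp4f18 3 and Lipc 3, against a median of 6 over all promoters. The motifs searched on both strands of the 250 bases were ATGCAAAT (octamer, in 1.60% of all promoters), GAGGAAGT (PU.1, 2.44%), CAGGTG (E2A, 17.2%), TGACGTCA (CRE, 1.55%), GGGACTTTC (NF-kB, 0.289%) and TTCCTAGAA (BCL6, 0.347%). Only Apoe and March1 held a match. The BCL6 word stands, on the reverse strand, before the first of the 3 March1 starts at chr8:65617833-65617859, and CAGGTG stands at 2 places before the second within chr8:65618299-65618336 and once before the second Apoe start at chr7:19698819-19698842. The matches are in capitals with 9 bases on each side, and none overlaps another motif of the set:
March1, first start: cttgttaggTTCTAGGAAtaagtaaag
March1, second start, distal: cccaggcggCAGGTGactttgccc
March1, second start, proximal: gactttgccCAGGTGggttcagca
Apoe, second start: gagtcagagCAGGTGgaggggtta
A match is a run of letters and not a measured site.

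Along the deposited pseudotime, which ranks cells from CB to CC and prememory, the 8 genes did not share 1 peak. Each library was divided into 10 deciles of its own cells by that rank. Transitioning cells made up 56.1% to 69.7% of deciles 4 to 6, over those deciles and libraries. The decile with the highest level ranged from 3 to 9 over genes and libraries, and its median position was at 65.0% of a library's cells.

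Apoe peaked late and within a narrow range, in decile 7 in WT and decile 8 in C, K and CK. Arl5c peaked in decile 6 in WT and decile 7 in the other libraries. Cyp4f18 peaked in decile 5 in WT, 6 in C and 9 in both K and CK, and Hpse in decile 5 in WT and C and 8 in K and CK. Lipc peaked early, in decile 4 in WT and C, 3 in CK and 7 in K. In every library and for each of the 8 genes, the interval of the peak decile overlapped that of at least 1 other decile, so that single peaks are imprecise.

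**Figure D2:**
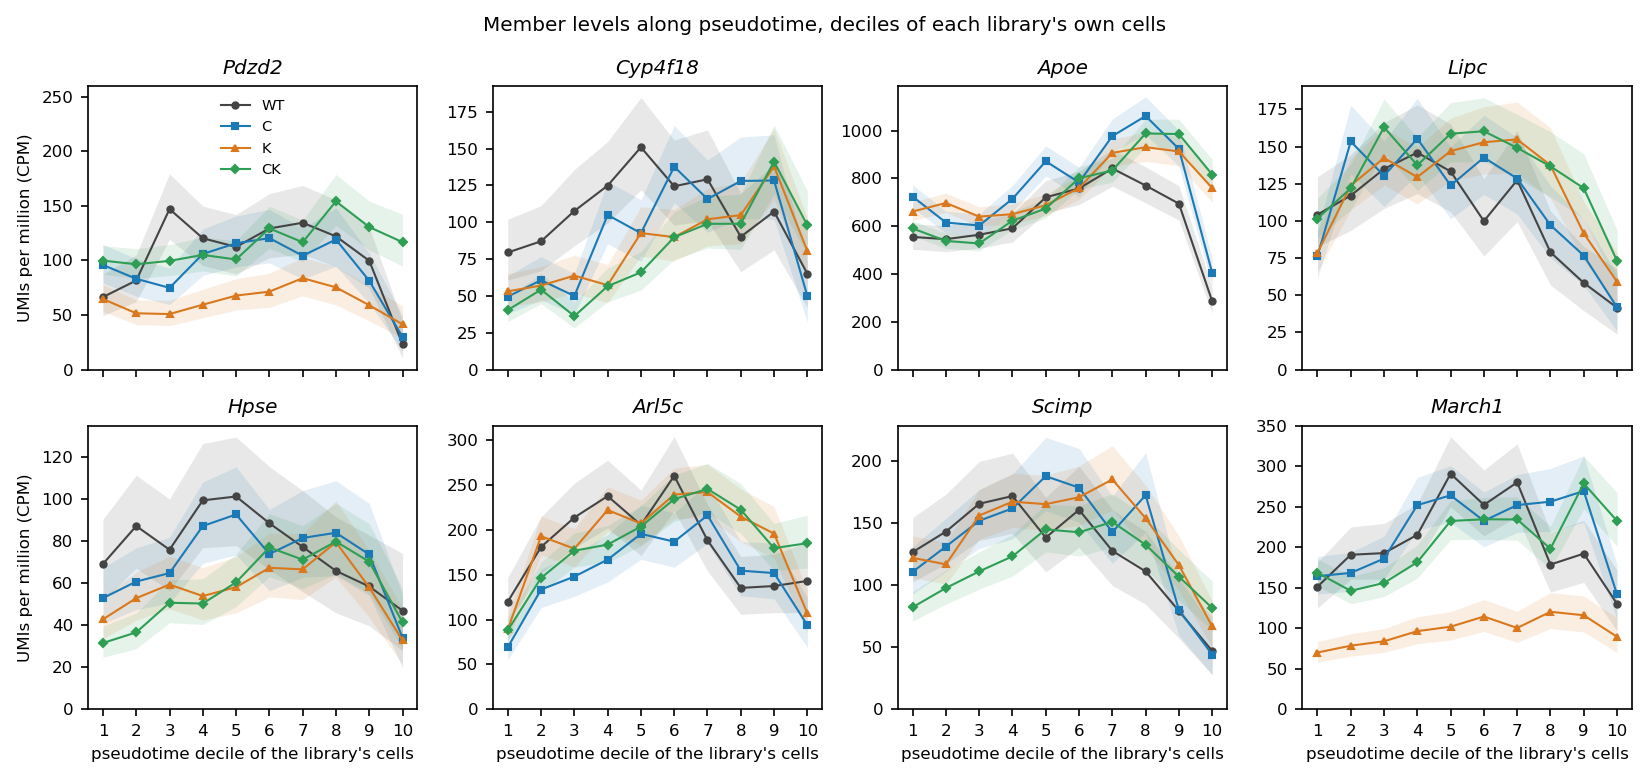
Levels of the 8 genes in CPM (vertical axes, linear from 0) in 10 deciles of each library's cells ordered by the deposited pseudotime (horizontal axes), with exact 95% Poisson intervals as shading. Apoe is highest in deciles 7 and 8, Arl5c in 6 and 7, and all 8 genes are lower in the last decile than at their peak.

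Within the transitioning cells alone, divided into 3 equal parts by pseudotime in each library, 5 genes were higher in the latest part than in the earliest in all 4 libraries with intervals above 0: Arl5c (log2 0.91 to 1.13), Cyp4f18 (0.53 to 1.43), Pdzd2 (0.52 to 0.86), March1 (0.50 to 0.85) and Apoe (0.47 to 0.73). Hpse did so in 3 of 4 (0.30 to 0.83). Lipc (-0.06 to 0.08) and Scimp (0.14 to 0.26) had intervals that included 0 in all 4 libraries. A difference of Lipc or Scimp was thus not detectable at this depth. The share of all genes that rose in this way is not given here, so the count of 5 genes has no background beside it.

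The cell cycle ran across the same cells. Transitioning cells with a deposited S phase score above 0 had lower levels of all 8 genes than those at or below 0, in 4 of 4 libraries. The share of all genes lower in such cells is not given here, for this split or for the G2M split below. The counts therefore do not set the 8 genes apart from other genes. The log2 difference ran from -1.01 to -0.77 for Arl5c, -0.96 to -0.38 for Cyp4f18, -0.80 to -0.44 for Pdzd2, -0.64 to -0.51 for Hpse, -0.62 to -0.37 for March1 and -0.51 to -0.27 for Apoe, with all intervals below 0. For Lipc (-0.39 to -0.11) and Scimp (-0.30 to -0.22) 3 of 4 intervals were below 0. Cells with an S score above 0 were also deeper, with medians of 4097.5 to 5905.5 UMIs against 2958 to 4915, higher in 4 of 4 libraries. The G2M score exceeded 0 in only 4.21% to 10.0% of transitioning cells. Cyp4f18, Apoe, Pdzd2, Arl5c and March1 were lower there in all 4 libraries. For Cyp4f18 (log2 -1.37 to -1.24) 3 of 4 intervals were below 0, and for Apoe (-0.93 to -0.63) 4 of 4. For Pdzd2, Arl5c and March1 only 1 of 4 was below 0.

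**Figure D3:**
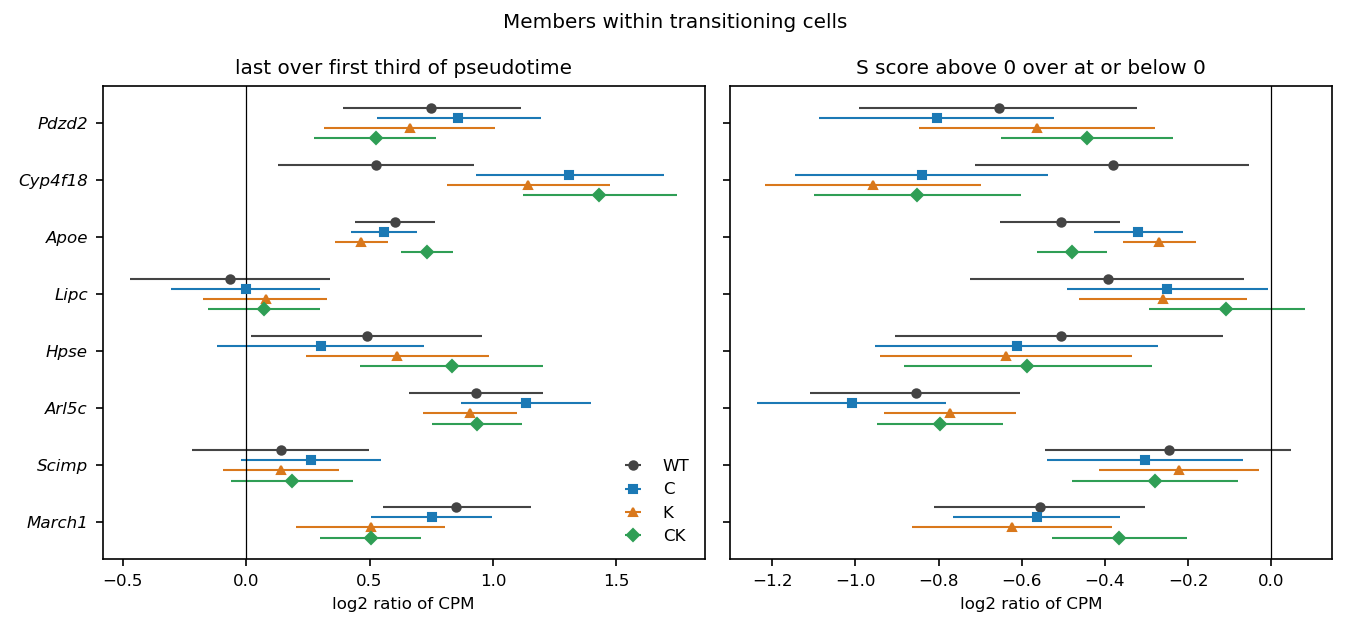
Log2 ratios of CPM within transitioning cells, for the latest over the earliest of 3 parts of pseudotime (left) and for cells with S score above 0 over the rest (right), 1 point a library with its exact 95% interval. Lipc and Scimp lie near 0 on the left, and all points lie below 0 on the right.

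Isotype gave weaker splits. Cells in which Ighg1 UMIs outnumbered Ighm UMIs made up 7.22%, 15.7%, 16.5% and 14.5% of transitioning cells of WT, C, K and CK. Scimp was higher in them in all 4 libraries (log2 0.25 to 0.46, 3 of 4 intervals above 0). Arl5c was lower in all 4 (log2 -0.72 to -0.20, 3 of 4 intervals below 0), and Apoe was lower by less (log2 -0.33 to -0.13, 3 of 4 intervals below 0). For Hpse, Cyp4f18 and Lipc at most 1 of 4 intervals lay off 0.

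Between genotypes, the transitioning cells of C differed least from WT. None of the 8 genes was past 1.5-fold in C, against 10.4% of 8805 genes tested, and the median log2 ratio was -0.08 (all genes 0.00). In K 2 of 8 genes were past 1.5-fold, both lower than WT, where 27.9% of all genes were past it in either direction and 22.7% were lower. The median of the 8 was -0.31 and that of all genes -0.14. In CK 2 of 8 were past it, both lower, against 15.5% of all genes in either direction and 7.48% lower, with medians of -0.13 and 0.01. The count in CK was 0 after thinning to 2000 UMIs (Cyp4f18 -0.48 and Hpse -0.50), when the deeper nearest-transitioning cells were included (-0.31 and -0.50), and in cells with S and G2M scores at or below 0 (-0.22 and -0.41). The thinned values lay within the main intervals given below. The deeper cells numbered 233 in WT and 81 in CK, so their part in the sums was unequal. In the deeper cells alone Cyp4f18 was at 79.1 CPM in WT and 54.0 in CK, and Hpse at 87.5 and 70.4. The share of all genes past 1.5-fold under these alternatives is not given here. The counts in K were thus no larger than the background.

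The 2 genes in K were March1 and Pdzd2. March1 was at 113 CPM against 250.02 CPM in WT (log2 -1.14 [-1.31 to -0.97]) and Pdzd2 at 82.1 against 150.1 CPM (log2 -0.87 [-1.08 to -0.66]). In CK, which carries the same Kmt2d allele, March1 (log2 -0.13 [-0.27 to 0.01]) and Pdzd2 (-0.10 [-0.28 to 0.08]) were near WT.

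The lower March1 level in K was not limited to GC B cells. It was at 80.9 CPM in follicular B-like cells of K and 189 of WT (log2 -1.22 [-1.46 to -0.98]), and at 128 and 198 CPM in marginal zone B-like cells (-0.63 [-1.09 to -0.19]). Among T-like cells March1 was at only 2.75 CPM in K and 6.19 in WT, from 15 and 35 UMIs (log2 -1.17 [-2.15 to -0.26]). Whether these UMIs came from the T-like cells or from free RNA of other cells was not tested. Pdzd2 was at 13.1 CPM in K and 21.05 in WT in follicular B-like cells (log2 -0.69 [-1.35 to -0.06]). The library as a whole differed there too: 24.8% of genes in follicular B-like cells and 25.5% in T-like cells were past 1.5-fold between K and WT, against 9.62% and 8.38% between CK and WT. Genotype and library cannot be told apart for these genes.

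The 2 genes in CK were Cyp4f18, at 94.96 CPM against 144 (log2 -0.60 [-0.80 to -0.40]), and Hpse, at 67.2 against 104 CPM (-0.64 [-0.87 to -0.40]). Both lay in the same direction in K (-0.53 for each) and to a lesser extent in C (-0.30 and -0.21). In CB the CK ratios were -0.88 [-1.32 to -0.43] for Cyp4f18 and -0.83 [-1.22 to -0.43] for Hpse. Unannotated GC B-like cells gave -0.77 [-0.99 to -0.55] and -0.54 [-0.74 to -0.35]. In CC both were -0.17, with intervals that included 0. Cyp4f18 in follicular B-like cells went the other way in K and CK, with intervals that included 0 (log2 0.17 [-0.05 to 0.40] and 0.19 [-0.04 to 0.41]). Hpse there was at 43.1 and 41.4 CPM against 42.9 in WT.

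The make-up of the transitioning cells moved along with these values. The share with an S score above 0 was 37.4% [33.0 to 41.9] for WT, then 43.8%, 55.4% and 59.0% [56.5 to 61.5] for C, K and CK. Among transitioning cells with both S and G2M scores at or below 0, Cyp4f18 was at 158, 151, 143 and 136 CPM, and its log2 ratio over WT was -0.15 [-0.41 to 0.11] in K and -0.22 [-0.48 to 0.04] in CK. Hpse kept intervals below 0 in K (-0.34 [-0.64 to -0.03]) and CK (-0.41 [-0.73 to -0.10]). March1 (-1.004 [-1.23 to -0.78]) and Pdzd2 (-0.77 [-1.04 to -0.50]) in K were nearly as low as before.

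In annotated transitioning cells Apoe and Lipc were slightly higher in all 3 mutants. The log2 ratio of Apoe was 0.16, 0.19 and 0.15 for C, K and CK, and that of Lipc 0.22, 0.16 and 0.31, where the Lipc interval in K included 0. The mutants share the WT library as reference, so a deviation of that 1 library would move all of them. In the deeper nearest-transitioning cells, Apoe was at 519, 542, 484 and 456 CPM for WT, C, K and CK. Lipc was there at 161, 165, 160 and 150 CPM, so K and CK were not above WT for either gene. Arl5c had an interval below 0 in C (log2 -0.36 [-0.51 to -0.21]) and intervals that included 0 in K and CK. Scimp was within 0.18 of WT on the log2 scale in all mutants, with an interval below 0 in CK (-0.176 [-0.345 to -0.005]). After thinning to 2000 UMIs the Scimp ratios were 0.28 in C, 0.23 in K and 0.002 in CK, each higher than before thinning. In CB the CK ratio of Scimp was -0.58 [-0.86 to -0.29] and in CC -0.12 [-0.39 to 0.15]. In unannotated GC B-like cells it was -0.48 [-0.61 to -0.35].

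**Figure D4:**
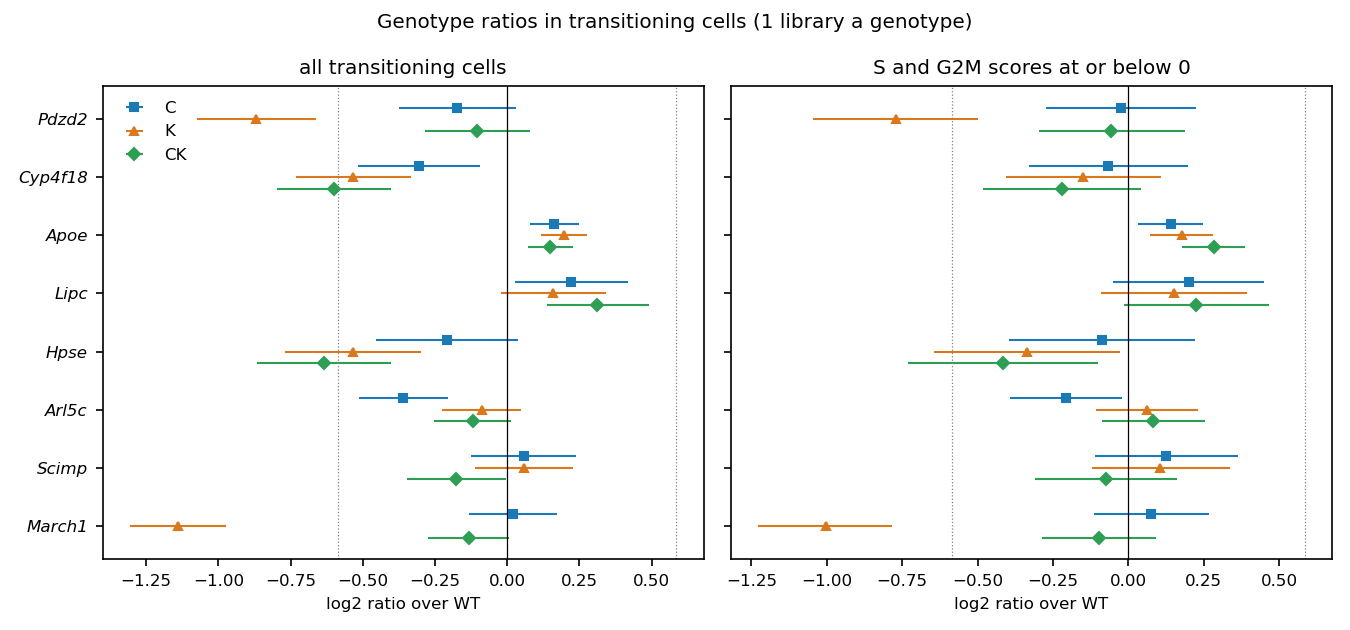
Log2 ratios over WT in all transitioning cells (left) and in those with S and G2M scores at or below 0 (right), with exact 95% intervals and dotted lines at 1.5-fold; each genotype is 1 library. March1 and Pdzd2 in K lie past the line in both panels, while Cyp4f18 in CK moves from -0.60 to -0.22.

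Outside the annotation, the genes separated into those centred on GC B cells and those shared with other cells. Classes were named from marker genes on clusters made without the 8 genes. Pdzd2, Apoe and Lipc belonged to the first kind. Pdzd2 was at 13.1 to 21.05 CPM in follicular B-like cells, 7.12 to 20.2 in marginal zone B-like cells and 2.02 to 2.30 in T-like cells. Lipc was at 12.4 to 15.2 CPM in follicular B-like and 27.6 to 49.8 in marginal zone B-like cells. Apoe was at 84.9 to 100.5 CPM in follicular B-like cells, 142 to 149 in marginal zone B-like cells and 119 to 355 in plasma-like cells, where WT was the lowest.

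Cyp4f18 was higher in marginal zone B-like cells, at 151 to 166 CPM, than in transitioning cells, at 94.96 to 144 CPM, and follicular B-like cells had 96.6 to 119.7 CPM. Its level in CB, 34.4 to 63.4 CPM, was below that of both of these classes. March1 was likewise at 189 to 211 CPM in follicular B-like cells of WT, C and CK, and low in plasma-like cells (at most 15.0003 CPM). Arl5c was at 253 to 326 CPM in follicular B-like cells and 137 to 156 CPM in T-like cells, beside 214 to 274 CPM in transitioning cells.

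Scimp and Hpse were also found in plasmacytoid dendritic-like cells, at 195 to 302 and 77.7 to 109 CPM, from 35 to 76 cells a library. Scimp was low in marginal zone B-like cells, at 9.76 to 23.7 CPM. In plasma-like cells all 8 genes were below their transitioning levels in each library.

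**Figure D5:**
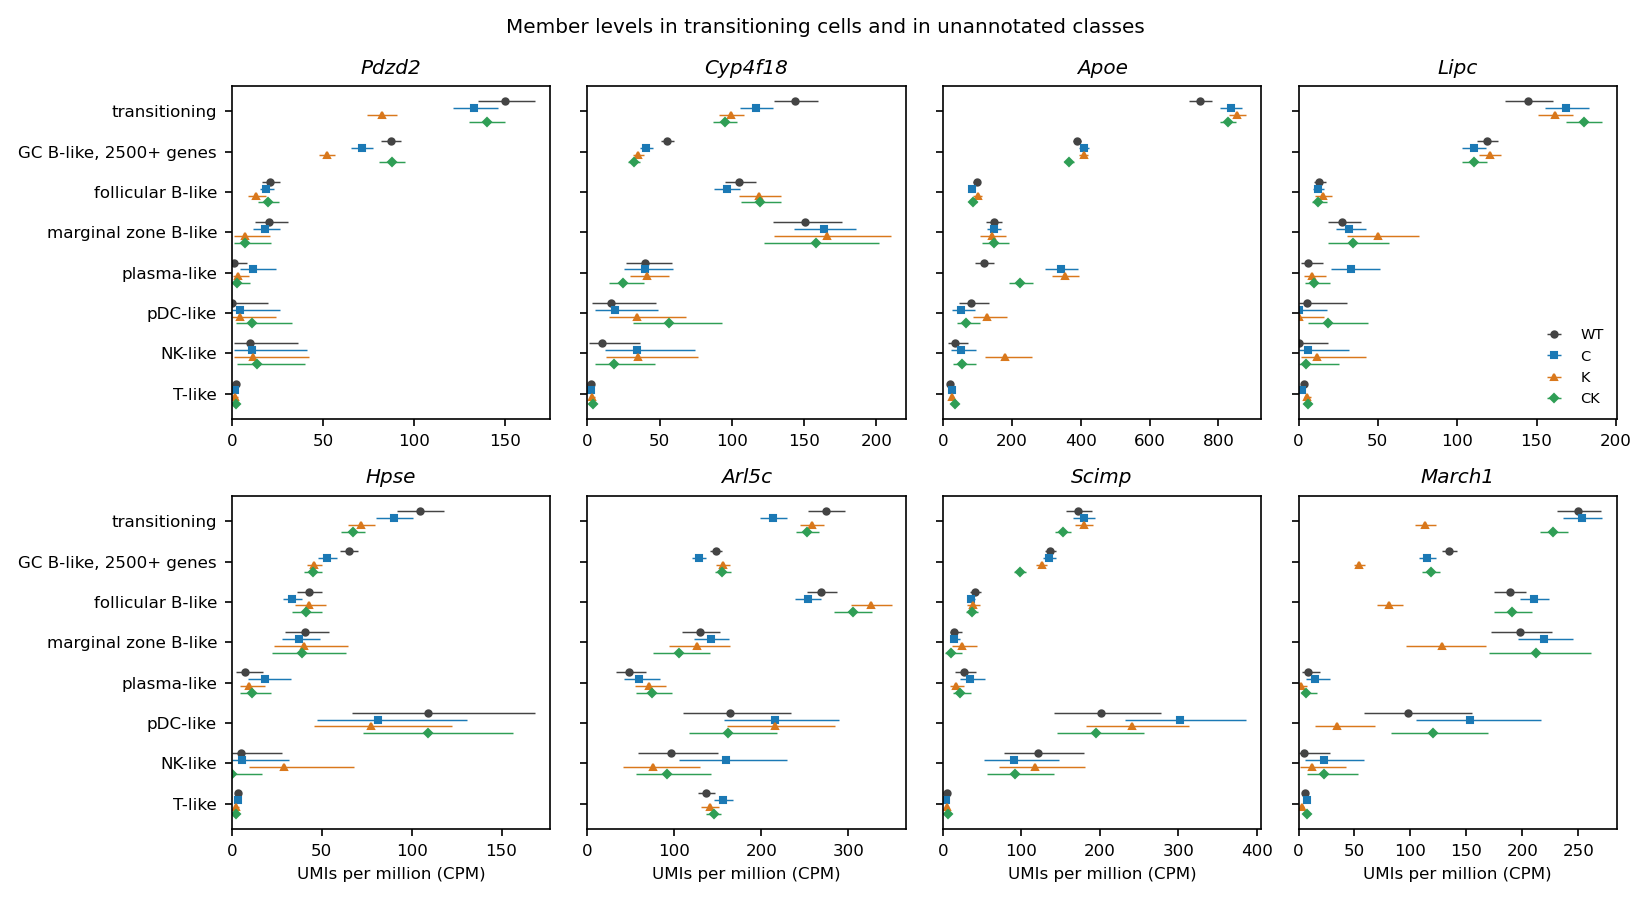
Levels of the 8 genes in CPM (horizontal axes, linear from 0) in transitioning cells and in classes of unannotated cells, 1 point a library with its exact 95% Poisson interval. Pdzd2, Apoe and Lipc are highest in transitioning cells, while Cyp4f18 reaches 166 CPM in marginal zone B-like cells and Arl5c 326 CPM in follicular B-like cells.

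The annotation holds no cell listed with 2500 or more genes, so 2926 deeper GC B-like cells were left outside it. Whether such cells had a part in the choice of genes is not known, so their values too are a description. They received the label most frequent among their 25 nearest annotated cells, with the 8 genes left out; annotated transitioning cells got their own label in 92.4% of cases. Between 81 and 233 of these cells a library were nearest to transitioning cells, and 5 to 33 to CC, so only CB, early CB and, in WT, CC could be compared. Cyp4f18, Lipc, Hpse, Arl5c, Scimp and March1 were highest in the nearest-transitioning cells in all 4 libraries, as were 7.53% of 3690 genes.

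Over CB, these deeper cells had log2 differences of 0.67 to 0.98 for Cyp4f18, 0.48 to 0.76 for Lipc, 0.46 to 0.77 for Hpse, 0.36 to 0.77 for Scimp, 0.31 to 0.64 for Apoe and 0.28 to 0.69 for Arl5c, with all intervals above 0. Pdzd2 stayed between -0.20 and 0.22 there, with 1 of 4 intervals above 0, and March1 between 0.01 and 0.40, with 2 of 4. The excess of Pdzd2 over CB seen in annotated cells was thus not detectable in the deeper cells of C, K and CK.

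Among the 10 other genes whose level over 21 subtype and library values was most like the mean of the 8 were Rhoh, Ildr1, Gm2447, Pitpnc1, Ssbp3, Jchain, S1pr2, Mzb1 and Dcaf12 (Pearson's r 0.96 to 0.98, as a description, since values of 1 library share its cells and depth). The 21 values include prememory cells, in which 7 of the 8 genes were low, so a high r need not mean a peak in transitioning cells. S1pr2 is a receptor that keeps B cells in the follicle. It was at 165 CPM in transitioning cells and 167 in CC of WT, and at 154 and 171 in C. In K the S1pr2 levels were 167 and 145 CPM, and in CK 172 and 161. Among the 8, Pdzd2 (r 0.97) and Scimp (0.96) were closest to the mean of the other 7, and Arl5c (0.47) was the least like it.

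Genes of the pathways around the 8 were compared by list. A list gene was counted when transitioning cells were past 1.5-fold in the same direction in all 4 libraries. Of the genes tested this held for 1.17% above CB, 4.13% below CB, 4.05% above CC and 2.94% below CC. Of the 8, Cyp4f18 and Lipc counted above CB, and Lipc and Arl5c above CC.

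Among 10 lipoprotein genes tested, Abca1 and Pltp were above CB, and those below CC included Abcg1 and Pltp. In transitioning cells Abca1 was at only 3.55 to 10.2 CPM, Pltp at 4.08 to 5.31 and Abcg1 at 0.82 to 1.48. These calls rest on few UMIs. Among 11 genes of MHC class II and its turnover, H2-Aa, H2-Oa, Cd86 and Cd83 were below CC and none was above CB, whereas March1 was 1.05 to 1.23 times its CC level. Of 6 heparan sulfate genes 1 counted (Sdc4, below CC, at only 2.56 to 8.26 CPM in transitioning cells). Of 2 leukotriene genes 1 counted (Ptgr1, above CC) and of 10 tetraspanin and adaptor genes 2 (Cd53 and Cd82, below CC). None of 8 other ARL and ARF genes and none of 7 other PDZ scaffold genes counted in any direction.

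The zone and cycle lists were counted in the same way. The authors named the subtypes by label transfer and checked the names with gene signatures and marker genes. Zone and cycle genes can therefore differ between subtypes in part through the naming itself. All 8 G2M genes were below CB (median log2 -4.02) and 3 were above CC, Top2a, Cenpe and Cdk1. All 8 S phase genes were above CC (median log2 1.98), with Mcm2, Mcm3, Mcm4 and Mcm6 also above CB and Tyms and Rrm2 below CB. Of 8 light zone genes 6 were below CC and none above CB. Of 8 dark zone genes 4 were below CB (Polh, Hmmr, Ccnb2 and Cdc20) and 4 above CC (Cxcr4, Gcsam, Polh and Ccnb2).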

How the data were processed

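The authors deposited 4 matrices of raw UMI counts, with 31053 genes per barcode, made with Cell Ranger (3.0.2 in the headers, 3.0 in the submitters' processing notes) on mm10. The cell table deposited by the authors (Seurat 4.0, labels transferred from reference data, slingshot pseudotime) holds, for each cell, its counts, a mitochondrial percent, gene-set scores, a subtype name and a rank on pseudotime. All 9804 cells matched a barcode. Its UMI totals matched those of the matrices exactly for 79.9% of cells, with gaps of up to 5 elsewhere.

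Library totals ran from 33270825 to 39803865 UMIs, which limits precision as the intervals show. Sums per library and subtype were scaled to 1000000 UMIs. Intervals were exact Poisson (levels), Clopper-Pearson (shares) and conditional binomial (ratios). Genotype ratios needed 20 UMIs or more in the pair of libraries together. For background shares, 3 counts replaced a 0.

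Barcodes under 8% mitochondrial UMIs were clustered in scanpy 1.11.5 (2000 variable genes, 30 components, 20 neighbours, Leiden resolution 1.5 in igraph 0.11.9) without the 8 genes, immunoglobulin and mitochondrial genes. A marker counted where its CPM reached 25% of its highest cluster. The class with most markers was given at 50% and at least 3 of them, 25 points ahead of the next, unless 50% of the cells were called doublets; these limits were set after clusters were seen, and 1 T-like cluster was led by interferon genes. Scrublet doublets were left in the main values. Other versions were numpy 2.4.6, scipy 1.17.1, pandas 2.3.3, scikit-learn 1.9.0 and matplotlib 3.10.9. The ratio step was tested on simulated counts.

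The members and lists were chosen with earlier results of these data known. Named genes were the 8, the 10 most similar genes by log2(CPM + 10), and genes of lists behind counts of 5 or fewer; the highest and lowest genes of each list, part of the rule, are not all printed. Some genes met by these rules are not reported here. Alternatives covered added or removed cells, thinning, scaling, filters and bins.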

Additional observations from a re-analysis of the deposited data

Results flagged for a closer look

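One result met the rule for effects that point in opposite directions. Apoe in CK over WT was higher in transitioning cells (log2 0.15) and lower in early CB (log2 -0.32), a difference of 0.47 between the subtypes. Both intervals of counting error excluded 0, the WT early CB numbered only 38 cells, and the difference itself was not tested.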

How the results depend on the processing

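No paired analysis was possible because each genotype is 1 mouse. The median excess of the 8 genes over the next subtype, 0.35 on the log2 scale, ran from 0.30 to 0.40 when each library was left out, and from 0.33 to 0.41 under the other alternatives. The count of genes highest in transitioning cells in every library ran from 6 to 7 when each library was left out, an alternative chosen after seeing the data. The median ratio over WT moved beyond the counting intervals in K to -0.044 with only cells at S and G2M scores at or below 0, and in CK to 0.023 when deeper cells beyond the gene limit were included and to -0.44 relative to T-like cells, whose member counts are low. In C it stayed between -0.15 and 0.03. March1 in K over WT turned from -1.14 to 0.032 relative to T-like cells, in which it was lower too (15 and 35 UMIs). The median peak position on pseudotime ran from 65.0% to 70.0% of cells over all alternatives. The number of CK genes past 1.5-fold went from 2 to 0 with thinning, with deeper cells included and with only cells at S and G2M scores at or below 0, and was 1 relative to T-like cells. With thinning both genes crossed the 1.5-fold line but stayed within their main intervals. The deeper cells made up unequal parts of WT and CK (233 and 81 cells). The share of all genes under these alternatives is not given here. Limits are 1 library a genotype, the 38 early CB of WT and the 5 to 33 CC above the gene limit.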

Other observations

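Among GC B-like cells outside the annotation and below the gene limit, which numbered 9 to 39 a library, 1 WT barcode held 135 of the 142 Apoe UMIs of its 17 cells and none of the 10 macrophage markers. In the other libraries the top cell held 4 to 18 Apoe UMIs.

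In the cluster left unnamed for its mixed erythroid, macrophage and neutrophil markers, Apoe was at 762 CPM in K and at 197 to 258 CPM in WT, C and CK, from 28 to 152 cells, and Pdzd2 had no UMI in any library. NK-like cells of K had 181 CPM of Apoe and those of the other libraries 35.3 to 55.1 CPM. Scimp was at 90.9 to 121 CPM in NK-like cells, where Pdzd2, Cyp4f18, Lipc, Hpse and March1 were at most 35.1 CPM.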
